A study of Arabidopsis thaliana with 64 samples.

Results

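The leaf transcriptome of the Arabidopsis thaliana DSK2 RNAi line was compared between plants deprived of fixed carbon for 5 days and control plants of the same line. The comparison rests on 5 of the 64 libraries in the labels, 3 from control and 2 from starved plants, chosen by genotype and treatment alone. All groups were leaves of plants aged 4 weeks, with 16 hours of light a day entered for every group. How light was set during the 5 days of starvation is not described here, and its part in the changes was not tested. The same starvation treatment was given to unmutated WT plants and to the autophagy mutant atg7-2, with 3 control and 2 starved libraries each. The brassinosteroid lines bes1-D and bri1-301 had the same numbers and are used below for single genes. Each of the 5 lines also had 3 libraries from leaves after 4 hours of dehydration, which entered the fit and are quoted for DSK2 RNAi in single genes. The labels do not give the promoter or target stretch of the RNAi construct, the number of independent lines behind it, or the hour of harvest. Separate plants are not stated for the replicates, and the p-values therefore describe the spread of these libraries, which may be technical. Library-scaled read values, headed RPM, were deposited for 40 of the 64 libraries, and the other 24 were not analysed here.

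DSK2A and DSK2B are closely related ubiquitin receptors. They carry a ubiquitin-like domain and a ubiquitin-associated domain, and they are known to bind ubiquitinated BES1, the transcription factor that switches on brassinosteroid growth genes, and to hand it to ATG8 on the autophagosome. Autophagy is the route by which cell contents are enclosed in a membrane and delivered to the vacuole for breakdown, and in leaves kept short of sugar it works beside the breakdown of starch, protein, lipid and chlorophyll. The question the comparison addresses is how leaves with lowered DSK2 respond to loss of carbon.

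Because DSK2A and DSK2B are near copies, their sequences bear on how far 50-base reads can tell them apart. DSK2A (AT2G17190) and DSK2B (AT2G17200) lie next to each other in locus numbering on chromosome 2, both on the minus strand, with coding sequences of 1617 and 1656 bases in the RefSeq annotation of TAIR10.1. Of 1605 aligned coding bases, 1460 are identical, a share of 91.0%. Of the 50-base windows of each transcript, 139 occur in both, which is 6.27% of the windows of DSK2A and 6.92% of those of DSK2B. The longest identical coding stretch is printed in capitals with 30 bases of flank on each side, in the sense of the transcript. It runs over coding bases 550 to 665 of DSK2A and 565 to 680 of DSK2B.
DSK2A: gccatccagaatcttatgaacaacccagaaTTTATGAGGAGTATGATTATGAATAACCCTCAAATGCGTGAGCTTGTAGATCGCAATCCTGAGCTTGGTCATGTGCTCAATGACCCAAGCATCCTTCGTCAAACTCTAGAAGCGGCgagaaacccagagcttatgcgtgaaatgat
DSK2B: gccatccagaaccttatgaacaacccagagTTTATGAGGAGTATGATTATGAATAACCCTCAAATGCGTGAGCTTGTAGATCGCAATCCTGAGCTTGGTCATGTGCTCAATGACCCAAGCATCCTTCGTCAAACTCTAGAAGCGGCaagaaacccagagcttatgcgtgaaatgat
Reads that lie wholly inside the capitals cannot be assigned to 1 of the genes, whereas all windows outside the 139 shared ones occur in only 1 of the pair. The treatment of reads with more than 1 match is not given in the labels or the table header.

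DSK2B rose steeply in the starved knockdown leaves. Its control libraries were at 15.8, 14.3 and 14.3 RPM and its starved libraries at 186 and 124 RPM, a difference of 3.32 on the log2(RPM + 0.5) scale used for all changes below (SE 0.18, limma adjusted p = 4.72e-16). The starved values lay at or about the WT control level of 131, 134 and 135 RPM, while the knockdown controls lay far below it. WT plants reached 220.4 and 210.4 RPM on starvation, a change of 0.69, and the change in the knockdown line exceeded it by 2.63 (SE 0.25, adjusted p = 6.72e-08). DSK2B in the knockdown line after dehydration was at 16.3, 18.5 and 16.8 RPM, close to its own controls. DSK2A stayed low. Its knockdown controls were at 6.06, 7.44 and 6.39 RPM and its starved libraries at 9.51 and 10.2 RPM, against 61.0, 75.8 and 70.4 RPM in WT controls and 53.2 and 59.7 RPM in starved WT leaves. The small rise of 0.54 (SE 0.23, adjusted p = 0.0396) passed the threshold of 0.05 in the full fit, and was lost when control replicate 1 or 3 or either starved library was left out and in a fit to the compared libraries alone. Its difference from the WT change, 0.83, did not pass (adjusted p = 0.302). The control libraries thus showed the knockdown in both genes, and the starved libraries showed it by value in DSK2A, while DSK2B lay closer to the starved WT level.

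**Figure D1:**
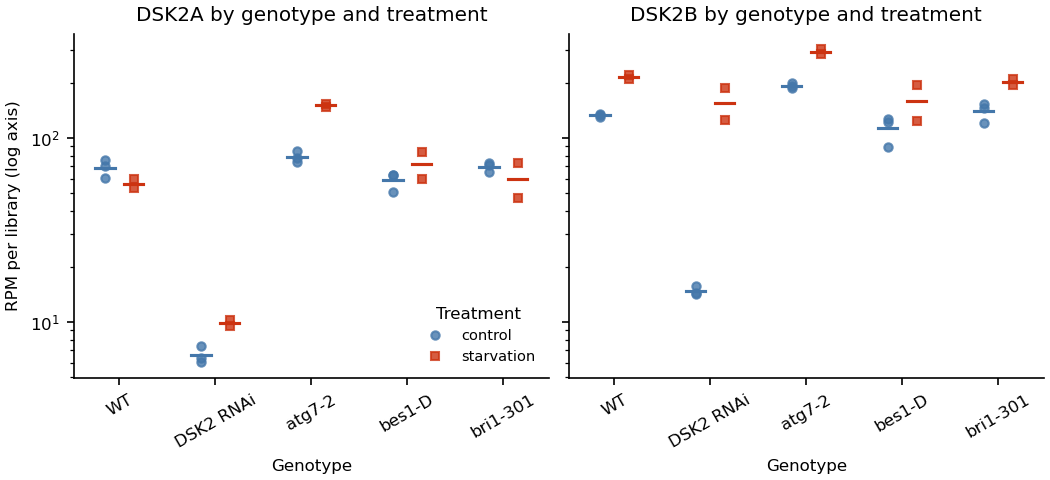
RPM of DSK2A and DSK2B (log axis) in each control (circle) and starved (square) library of 5 genotypes, with bars at group means. The DSK2 RNAi controls lie below the other lines for both genes, and the starved DSK2 RNAi libraries reach 186 and 124 RPM for DSK2B but only 9.51 and 10.2 RPM for DSK2A.

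The response as a whole was broad. Of 19824 genes tested, 4943 were higher and 7145 lower in starved than in control DSK2 RNAi leaves at an adjusted p under 0.05, or 24.9% and 36.0% of all genes. A change of at least 4-fold was called for 1191 higher genes (6.01%) and 2276 lower genes (11.5%), and the median change over all genes was -0.148. In WT leaves 4887 genes (24.7%) were called higher and 7081 (35.7%) lower. Counts of list members below are to be read against these shares. Both starved libraries lay above every control, or both below, in 14866 of the tested genes (75.0%). Separate groups were thus the usual case. The authors' deposited table marks 13972 of the tested genes as changed in this comparison, and 11613 of them are among the 12088 called here, which is 83.1% of the authors' genes and 96.1% of the genes called here. The 5 libraries held 29006058 to 30343063 recovered reads, of which the 10 highest genes took 6.76 to 11.5%.

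Genes known to answer sugar shortage mostly rose. Of 22 tested members, 17 rose and 1 fell, with a median change of 1.39. Other settings moved the number that rose, to 13 without control replicate 2 and 21 with DESeq2. DIN2 (AT3G60140), a dark-induced beta-glucosidase, was the most raised of all genes named by symbol. It went from 15.6, 5.66 and 3.12 RPM in the controls to 3475 and 6288 RPM after starvation (log2 change 9.36, SE 0.81, adjusted p = 2.34e-11). The control replicates of DIN2 were uneven, with replicate 1 highest, yet all lay far below both starved libraries, and the change was 9.95 without replicate 1. DIN9, a mannose-6-phosphate isomerase, rose from 3.71, 3.09 and 4.08 to 117 and 132 RPM (log2 change 4.93, SE 0.28, adjusted p = 1.73e-15). DIN11, a 2-oxoglutarate-dependent dioxygenase, rose from 4.67, 2.09 and 4.69 to 56.9 and 95.7 RPM (log2 change 4.18, SE 0.42, adjusted p = 4.93e-10). These groups did not overlap for either gene, as in 75.0% of all tested genes. GDH2, a glutamate dehydrogenase that feeds carbon from glutamate into respiration, rose from 193, 98.0 and 111 to 1385 and 1282 RPM (log2 change 3.38, SE 0.38, adjusted p = 4.86e-09). DIN6, the asparagine synthetase ASN1, was already high in the controls at 1491, 796 and 951 RPM and reached 8108 and 6261 RPM (2.77, adjusted p = 3.58e-09). TPS5, of the trehalose-6-phosphate synthase family, was the member that fell, from 5.18, 9.53 and 9.04 to 0.944 and 1.54 RPM (-2.25, adjusted p = 2.1e-05).

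Amino acid breakdown genes rose almost without exception, 20 of 21, with a median change of 2.13. LKR (AT4G33150), the bifunctional enzyme that begins lysine breakdown, had controls at 106, 87.5 and 162 RPM and starved libraries at 2967 and 5083 RPM (log2 change 5.08, SE 0.49, adjusted p = 2.45e-10). Both starved libraries of LKR lay far above every control, though they differed from each other. The locus AT5G38710, listed with proline oxidation, rose from 15.2, 12.8 and 18.5 to 379.8 and 251 RPM (4.29, adjusted p = 1.24e-12). BCDH BETA1, a subunit of the branched-chain keto acid dehydrogenase, rose from 37.0, 23.9 and 28.6 to 329 and 333 RPM (3.47, adjusted p = 7.02e-16). ERD5, the proline dehydrogenase ProDH1, rose from 764, 249 and 279 to 3250 and 2823 RPM (3.01, SE 0.72, adjusted p = 0.000579), and its control replicate 1 stood above the other controls. The exception was AT5G09300, which fell by 0.97 (adjusted p = 0.000429).

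Most genes listed for fatty acid oxidation and the route from fat to sugar rose too, with 12 of 15 members higher, 1 lower and a median change of 1.5. Without control replicate 1 the number higher was 10, and with edgeR it was 13. In WT the same list gave 5 higher and none lower, with a median of 0.491, but no member differed between the lines in the test of the difference, so the larger count is not shown to be a property of the knockdown. ICL, isocitrate lyase of the glyoxylate cycle, had control values under the 3-read floor, which was 0.1006 to 0.114 RPM over all libraries, and starved values of 11.2 and 9.02 RPM (adjusted p = 5.34e-16). PPDK, which makes phosphoenolpyruvate from pyruvate, rose from 156, 137 and 158 to 1597 and 1264 RPM (log2 change 3.24, SE 0.32, adjusted p = 4.66e-10). SDP1, a lipase of stored oil, rose from 52.8, 59.0 and 72.1 to 217 and 244 RPM (1.91, adjusted p = 0.000351). KAT2, the last enzyme of peroxisomal beta-oxidation, rose by 1.82 (adjusted p = 1.92e-10). MLS, malate synthase, was the member called lower (-0.54, adjusted p = 0.0281), a call lost without control replicate 1 or 2 or starved replicate 2, with median-of-ratios scaling, with DESeq2 and in a fit to the compared libraries alone.

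Most starch and sucrose genes fell. Of 18, 4 rose and 13 fell (median -1.42), with 10 lower without control replicate 3. The 4 that rose were on the breakdown side. SUS3, a sucrose synthase, rose from 0.954, 1.51 and 2.11 to 81.5 and 102 RPM (5.54, adjusted p = 4.64e-12), its paralog SUS1 by 3.57, the beta-amylase BAM1 by 2.97 and the cytosolic invertase CINV1 by 1.46. Among those that fell was ADG1, the small subunit of the enzyme that makes ADP-glucose for starch, from 147, 173 and 199 to 5.03 and 5.1 RPM (log2 change -4.95, SE 0.31, adjusted p = 1.12e-14). The isoamylase ISA1 (-4.03) fell as well. SEX1 (-3.37), the kinase that primes starch for breakdown, also fell, so loss of expression was not limited to synthesis genes. Nitrogen assimilation fell, with 8 of 10 members lower and 1 higher (median -1.53). GLN2, the chloroplast glutamine synthetase, went from 676, 828 and 899 to 13.2 and 15.7 RPM (log2 change -5.74, SE 0.3, adjusted p = 2.14e-16). ASN2, an asparagine synthetase, went from 27.3, 23.3 and 28.8 to 0 and 0.302 RPM (-5.41, adjusted p = 4.52e-16), and the ferredoxin-dependent glutamate synthase GLU1 fell by 5.14. The cytosolic glutamine synthetase GLN1.3 was the member that rose (1.16, adjusted p = 3.73e-05). DIN6 and ASN2, which encode the same kind of enzyme, thus moved in opposite directions.

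**Figure D2:**
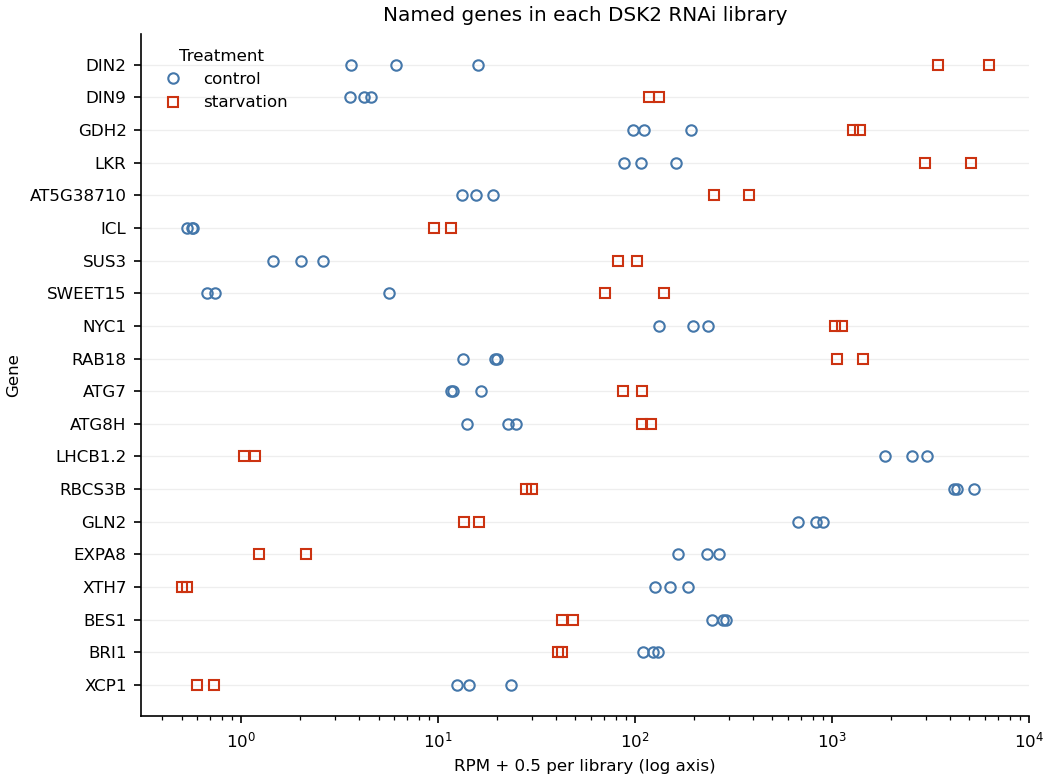
RPM + 0.5 (log axis) of 20 named genes in each of the 3 control and 2 starved DSK2 RNAi libraries. For DIN2 the starved points lie at 3475 and 6288 RPM, and for LHCB1.2 at 0.675 and 0.537 RPM, on opposite sides of their controls.

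Photosystem and Calvin cycle genes fell. All 42 photosystem and antenna genes were called lower, with a median change of -4.64, and 39 of them by at least 4-fold. LHCB1.2, a light-harvesting protein of photosystem II, went from 2550, 3045 and 1871 RPM to 0.675 and 0.537 RPM (log2 change -11.11, SE 0.31, adjusted p = 8.26e-23). LHCB3 went from 5138, 6185 and 5081 to 15.4 and 16.2 RPM (-8.38, adjusted p = 1.68e-24). LHCB1.1 fell by 9.93 and LHCB6 by 7.51. Reads of the LHCB1 and RBCS genes may be split among near-identical copies, so single values in those families are uncertain. In the Calvin cycle 18 of 20 members were lower and none higher (median -3.47). RBCS3B, a small subunit of Rubisco, went from 4305, 5271 and 4185 to 27.6 and 29.7 RPM (-7.29, adjusted p = 1.33e-21), and GAPB, a chloroplast glyceraldehyde-3-phosphate dehydrogenase, fell by 5.08.

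Chlorophyll breakdown and leaf senescence genes moved the other way. Of 8 chlorophyll breakdown genes, 5 rose and 1 fell (median 1.33). NYE2, a stay-green protein that starts the removal of magnesium from chlorophyll, rose from 14.8, 7.65 and 15.2 to 185 and 149.5 RPM (3.74, adjusted p = 2.67e-12), NYC1, a chlorophyll b reductase, from 196, 132 and 234 to 1036 and 1130 RPM (2.57), and NYE1 by 2.42. PAO, which opens the chlorophyll ring, rose by 1.55, while RCCR, the next enzyme of the route, fell by 1.32 (adjusted p = 8.32e-06). Of 21 senescence genes, 16 rose and 2 fell (median 1.82). SWEET15, a sucrose exporter also named SAG29, was at 5.18, 0.172 and 0.238 RPM in the controls and 140.4 and 70.2 RPM after starvation (log2 change 6.14, SE 0.94, adjusted p = 1.52e-06). Control replicate 1 was the highest of its controls, and the change was 6.14 with it and 7.15 without it. DESeq2 on recovered reads gave no adjusted p for it. SAG13, a short-chain dehydrogenase, rose by 3.58, the nuclease BFN1 by 3.31 and the transcription factor NAC055 by 3.23. SAG12, the vacuolar protease often used to mark late senescence, was at 2.66, 0.0686 and 1.7 RPM in controls and 6.34 and 3.76 RPM after starvation (1.77) and did not pass (adjusted p = 0.0587), though it did without control replicate 1 and in 4 other settings. WRKY53 (-1.75) and PIF5 (-0.84) were the 2 members that fell, the PIF5 call being lost without control replicate 1 or 3 or starved replicate 1.

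Autophagy machinery genes rose in part. Of 40 tested, 16 were higher and 2 lower, with a median change of 0.54 and a range from -1.0 to 2.88. ATG7, the enzyme that activates ATG8 and ATG12, had controls at 11.5, 11.1 and 16.1 RPM and starved libraries at 109 and 86.2 RPM (log2 change 2.88, SE 0.31, adjusted p = 1.96e-09). Among the genes for ATG8, the protein that coats the autophagosome and to which DSK2 binds, ATG8H rose from 22.2, 13.6 and 24.6 to 108 and 121 RPM (log2 change 2.52, SE 0.36, adjusted p = 4.57e-07). ATG8B rose from 30.1, 28.7 and 31.4 to 154 and 126 RPM (log2 change 2.2, SE 0.25, adjusted p = 5.97e-09). ATG8A rose by 1.28 (adjusted p = 0.000162), whereas ATG8C, ATG8D, ATG8E, ATG8F, ATG8G and ATG8I did not pass. In the complex that starts autophagy, ATG11, a scaffold of the kinase, rose from 31.9, 35.7 and 49.0 to 124 and 141 RPM (1.77, adjusted p = 0.00345), ATG13 by 1.31 and ATG101 by 1.08. ATG9, the membrane protein of the growing autophagosome, rose by 1.38 (adjusted p = 0.00247), and its partner ATG2 by 1.51 (adjusted p = 0.036), a call lost when control replicate 1 or 2 or either starved library was left out.

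Of the lipid side of autophagy, VPS15, the regulatory subunit of the phosphatidylinositol 3-kinase, rose from 27.2, 33.7 and 43.9 to 126 and 142 RPM (1.95, adjusted p = 0.0041). The phosphoinositide-binding genes ATG18F (2.07) and ATG18H (1.53) rose as well, and ATG18A (0.79, adjusted p = 0.00159) and ATG18B (0.56, adjusted p = 0.046) more weakly. The ATG18A call was lost without starved replicate 1, and the ATG18B call without control replicate 2 or 3 or either starved library, as well as with no filter, the replicate block and the compared libraries alone. The loci AT1G77890 (2.37) and AT5G50230 (0.65) complete the genes that rose, the latter call being lost without control replicate 1 or 2 or starved replicate 2. ATG10, the conjugating enzyme for ATG12, fell from 9.1, 7.3 and 7.1 to 3.44 and 3.86 RPM (-1.0, adjusted p = 8.11e-06), and ATG12B fell by 0.74 (adjusted p = 0.00468). ATG5, which receives ATG12, was at 21.6, 15.1 and 23.9 RPM in controls and 26.9 and 29.8 RPM after starvation (0.5) and did not pass (adjusted p = 0.0991). In WT the values were -0.04 for ATG11, 0.02 for VPS15 and 1.85 for ATG7, but no autophagy gene passed the test of the difference between the lines. With other settings between 13 and 25 members were called higher in the knockdown line, and the number lower stayed at 2.

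Other receptors and shuttle factors changed less than DSK2B. Of the 11 genes of this list, 6 rose and 2 fell (median 0.505). The number that rose was 3 without starved replicate 1 and 4 without control replicate 1 or 3. ATI1, a plant ATG8-interacting protein that carries plastid contents to the vacuole, rose from 84.5, 73.0 and 79.8 to 212 and 194 RPM (log2 change 1.36, SE 0.19, adjusted p = 3.4e-07). ATI2 went from 82.7, 90.7 and 101 to 143 and 136 RPM (0.61, adjusted p = 0.0088), a call lost without starved replicate 1. NBR1, the receptor that brings ubiquitinated aggregates to ATG8, was at 547, 672 and 548 RPM in controls and 884 and 619 RPM after starvation. Its groups overlapped, and the change of 0.33 did not pass (adjusted p = 0.103). Among the RAD23 proteins, which like DSK2 join a ubiquitin-like to ubiquitin-associated domains, RAD23B fell by 0.57 (adjusted p = 0.00204). RAD23D rose by 0.51 (adjusted p = 0.00151), and RAD23C by 0.64 (adjusted p = 0.0493), a call lost when any 1 of the 5 libraries was left out. RPN10, the ubiquitin receptor of the proteasome, and the shuttle factor DDI1 had changes of -0.07 and -0.41 by value and did not pass (adjusted p = 0.706 and 0.131).

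Calls in the 26S proteasome list depended on scaling. Of 29 subunits, 4 rose and 3 fell, against 10 and 1 with median-of-ratios scaling, 10 and 2 with edgeR and DESeq2, and 2 and 2 without control replicate 1 or starved replicate 2. The median of 0.091 ranged from -0.018 to 0.229 over the alternative settings. RPT3, an ATPase of the regulatory particle, rose from 192, 229.5 and 212 to 563 and 506 RPM (1.34, adjusted p = 2.1e-05). The lid subunit AT5G23540 rose by 0.82 and RPT5A by 0.79 (adjusted p = 0.0209), the latter lost without control replicate 1 or starved replicate 2. PAD1, of the 20S core, fell by 0.67 (adjusted p = 0.00359), which was lost without starved replicate 1.

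**Figure D3:**
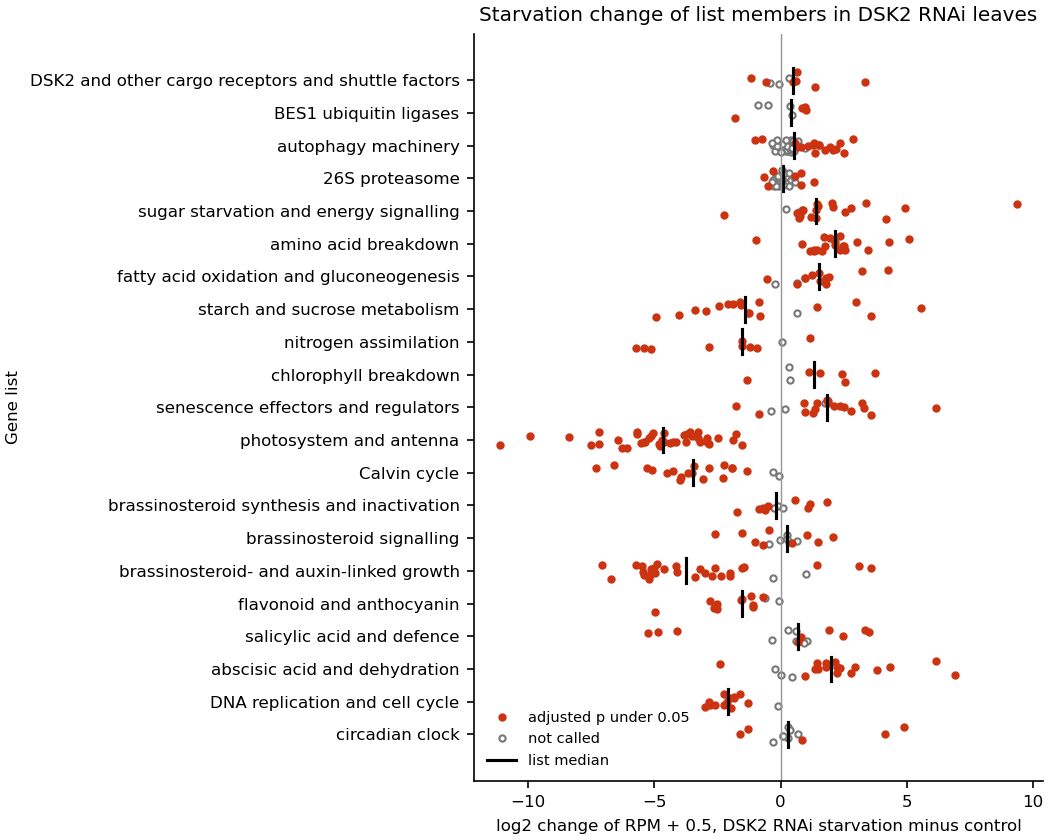
Log2 change on starvation in DSK2 RNAi leaves for each member of 21 gene lists, filled where called and open where not, with a bar at the median of the list. Photosystem genes lie wholly below 0 (median -4.64), and sugar starvation genes mostly above it (median 1.39).

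BES1, the cargo of DSK2, fell at the transcript level. It had controls at 290.2, 247 and 279 RPM and starved libraries at 42.2 and 47.9 RPM (log2 change -2.58, SE 0.2, adjusted p = 1.55e-12). In WT the change was -2.13, and the difference between the lines did not pass (adjusted p = 0.415). Its closest relative BZR1 was at 60.0, 55.2 and 51.9 RPM in controls and 69.6 and 62.4 RPM after starvation (0.24), and did not pass (adjusted p = 0.186). Of the other family members, BEH4 rose by 1.06 (adjusted p = 0.00055), while BEH1 (-0.45), BEH2 (-0.04) and BEH3 (0.27) did not pass. These values concern transcripts only. BES1 protein, the form that DSK2 binds, was not measured.

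Among the receptors of the hormone, BRI1 fell from 124, 130 and 109.6 to 42.1 and 40.2 RPM (log2 change -1.54, SE 0.4, adjusted p = 0.0012) while its relative BRL3 rose from 11.6, 8.81 and 13.2 to 48.6 and 48.4 RPM (log2 change 2.08, SE 0.38, adjusted p = 2.39e-05). The groups were apart for both, as in 75.0% of all tested genes. BRL1, at 0.66, did not pass (adjusted p = 0.119). The co-receptor BAK1 rose by 0.46 (adjusted p = 0.0212), a call lost without control replicate 2 or either starved library and with the length trend removed. BSK1, a kinase that relays the signal from the receptor, rose from 96.5, 67.1 and 89.0 to 205 and 270.4 RPM (1.49, adjusted p = 9.44e-06). The receptor inhibitor BKI1 fell by 0.48 (adjusted p = 0.0216), a call lost without control replicate 1 or either starved library and with median-of-ratios scaling, edgeR and DESeq2. Of the kinases that inactivate BES1, BIN2, at 0.33, did not pass (adjusted p = 0.128), BIL1 fell by 0.72 and BIL2 by 1.02 (adjusted p = 0.00346 and 0.0165), the last call lost without starved replicate 1. In all, 4 of 15 signalling genes rose and 5 fell, and in WT the counts were also 4 and 5. In the knockdown they were 6 and 4 with median-of-ratios scaling and edgeR, 8 and 4 with DESeq2, and 3 and 3 without starved replicate 1.

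Of 12 genes of brassinosteroid synthesis and inactivation, 4 rose and 5 fell, with 3 lower without starved replicate 1 and 2 higher without starved replicate 2. DWF1, a sterol reductase on the route to brassinosteroids, fell from 261, 301 and 245 to 83.2 and 76.5 RPM (-1.74, adjusted p = 4.12e-06) and DWF5 by 0.86. ROT3, a cytochrome P450 late in the route, rose by 1.85 (adjusted p = 1.57e-08) and DWF4, which catalyses C-22 hydroxylation, by 1.16 (adjusted p = 0.00756), a call lost without control replicate 2 or starved replicate 2. Of 8 ubiquitin ligase genes listed for BES1 or its relative BZR1, 3 rose and 1 fell. SINAT2 rose from 15.9, 14.4 and 19.4 to 32.0 and 34.2 RPM (log2 change 0.99, SE 0.21, adjusted p = 0.000207), AT3G61790 by 0.97 and MAX2, the F-box protein of strigolactone signalling, by 0.84. AT5G40140 fell from 4.29, 4.42 and 3.46 to 0.675 and 0.906 RPM (-1.82, adjusted p = 1.46e-08). COP1 (-0.88), AT4G27880 (0.46), AT2G41980 (-0.48) and AT5G53360 (0.39) did not pass (adjusted p = 0.108, 0.0506, 0.245 and 0.171), but AT5G53360 passed without starved replicate 1 and with median-of-ratios scaling, edgeR and DESeq2.

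Growth genes linked to brassinosteroid and auxin fell, 25 of 30 tested, with 3 higher and a median of -3.75. EXPA8, an expansin that loosens the cell wall, went from 267, 233 and 165 to 0.742 and 1.64 RPM (log2 change -7.06, SE 0.5, adjusted p = 3.33e-13). EXPA3 fell by 6.71, XTH8, a xyloglucan-remodelling enzyme, by 5.73 and EXPA6 by 5.48. The members that rose were XTH24, from 325, 148 and 179.5 to 2501 and 2446 RPM (3.59, adjusted p = 3.07e-09), EXPA16 (3.1) and IBH1 (1.46), a known repressor of cell elongation, so the cell-wall families did not move as blocks. DNA replication and cell cycle genes fell in 13 of 14, with none higher and a median of -2.08. CDKB2;1, a mitotic kinase, fell by 2.59 and MCM3, a subunit of the replicative helicase, by 1.86. Of 13 flavonoid and anthocyanin genes, 11 fell and none rose (median -1.54), with CHS, the entry enzyme of the pathway, going from 22.6, 65.9 and 57.9 to 1.01 and 0.805 RPM (-4.99, adjusted p = 5.21e-12). In these 3 lists many starved values are low, and the medians moved with the handling of low values, while the counts with edgeR and DESeq2 were those given. With DESeq2 they were -5.65 for growth, -3.26 for DNA replication and -3.67 for flavonoid genes.

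Abscisic acid and dehydration genes rose in 16 of 20, with 1 lower and a median of 1.98. RAB18, a dehydrin, went from 13.0, 19.5 and 18.9 to 1438 and 1068 RPM (log2 change 6.16, SE 0.41, adjusted p = 5.77e-14), RD29B rose by 6.91 (adjusted p = 1.17e-08), RD20, a lipid-droplet protein, by 4.34, and HAB1, a phosphatase that dampens the hormone's signal, by 3.83. KIN2 fell by 2.38 (adjusted p = 8.76e-07). Among 12 clock genes, 3 rose and 2 fell. The morning genes LHY, from 2.21, 2.33 and 3.46 to 77.5 and 110.2 RPM (4.89, adjusted p = 2.25e-13), and CCA1 (4.14) rose, and the evening genes FKF1 (-1.6) and GI (-1.28) fell, the GI call being lost without control replicate 2 or 3 or either starved library. The part of harvest time in these clock values was not tested.

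Of all tested genes, those most raised with a symbol and non-overlapping groups included genes of late embryogenesis and seed. LEA7, a late embryogenesis abundant protein, went from 0.0341, 0.0343 and 0.679 to 179.8 and 198 RPM (8.09, adjusted p = 4.73e-10). SOM, a zinc finger protein known to repress light-driven germination, went from 0, 0 and 0.102 to 143 and 67.3 RPM (7.53, adjusted p = 8.1e-16). The controls were at or under the 3-read floor for both genes except LEA7 in control replicate 3, and changes from such low values depend on the pseudocount. TPX2, a thioredoxin-dependent peroxidase, went from 10.3, 7.92 and 9.44 to 1442 and 1196 RPM (log2 change 7.08, SE 0.37, adjusted p = 1.8e-16). LEA18 (6.95), the glyoxalase family gene GLYI4 (6.9) and DOX1 (6.74), an alpha-dioxygenase of fatty acids, completed this group with DIN2 and RD29B. Without control replicate 1, which was high for DOX1, its change was 7.55. The most lowered genes outside the antenna were VSP1, a jasmonate-responsive storage protein, from 233, 424 and 606 to 0.911 and 0.604 RPM (-8.29, adjusted p = 6.54e-16), XTH7, from 151, 185 and 126 to 0 and 0.0335 RPM, both under the floor (-8.21), GER3 (-8.07) and the aldolase FBA5 (-7.63).

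Defence genes tied to salicylic acid gave a divided answer. Of 15, 6 rose and 3 fell, with a median change of 0.7. Those higher numbered 5 without control replicate 1 and 9 with DESeq2. Most of the genes that rose are known to act in making the hormone or in its regulation. ICS1 (AT1G74710), the isochorismate synthase of salicylic acid synthesis, went from 12.3, 17.0 and 20.3 to 79.5 and 108 RPM (log2 change 2.48, SE 0.31, adjusted p = 4.71e-08). PBS3, which conjugates isochorismate to glutamate, went from 7.19, 7.54 and 12.9 to 74.4 and 149 RPM (log2 change 3.49, SE 0.45, adjusted p = 6.19e-08). FMO1, which makes the immune signal N-hydroxypipecolic acid, went from 1.47, 1.1 and 1.94 to 15.3 and 25.4 RPM (log2 change 3.36, SE 0.46, adjusted p = 2.59e-07). In all 3 genes both starved libraries lay above every control, while groups were apart in 75.0% of all tested genes. The transcription factor CBP60G rose by 1.92 (adjusted p = 2.52e-05), EDS5, the chloroplast exporter of the precursor, by 0.7 (adjusted p = 0.014) and PAD4 by 0.82 (adjusted p = 0.0198). The EDS5 call was lost without starved replicate 2, and the PAD4 call without control replicate 1 or starved replicate 2.

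The genes that fell are pathogenesis-related outputs of the same hormone. PR2, a glucanase, went from 88.3, 217 and 157 to 3.34 and 3.32 RPM (log2 change -5.24, SE 0.54, adjusted p = 9.39e-10), PR5 fell by 4.85 and PR1 went from 248, 57.1 and 79.5 to 6.98 and 4.56 RPM (-4.09, adjusted p = 8.12e-05). PR1 was highest in control replicate 1, and its change was -3.46 without that library. In WT, 1 of the 15 genes rose and 5 fell (median -0.889). ICS1 and EDS5 passed the test of the difference between the lines, with values given below, and PBS3 came short of it (difference 2.76, adjusted p = 0.0548).

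Cell type markers shifted beside these changes. The summed RPM of 5 mesophyll markers went from 21490 to 28120 in the controls to 1213 to 1295 after starvation, with 5 of 5 called lower; most are photosynthesis genes also counted above. All 8 xylem markers fell, from a sum of 72.1 to 118.6 RPM to 2.5 to 3.46 RPM, and 1 of them, IRX1, was at 0 in 1 starved library. Guard cell markers fell in 4 of 6 (69.8 to 100.9 against 20.1 to 35.6 RPM), phloem markers in 4 of 6 (367 to 613 against 190.5 to 352 RPM) and epidermis markers in 2 of 5 (792.5 to 916.3 against 541.2 to 629.9 RPM), with none higher in these lists. Without starved replicate 1 the numbers lower were 2 for guard cell and 2 for phloem markers. Phloem markers also gave 2 without control replicate 1 or 3, and epidermis markers gave 1 in each fit without 1 of the 5 libraries. Floral organ markers were low, at 7.37 to 17.3 RPM in controls and 21.2 to 39.6 RPM after starvation, where the rise of the sum came from 1 of 7, the petal and stamen gene PI, which rose from 4.19, 0.995 and 1.8 to 18.4 and 33.2 RPM. SEP3, AP1 and AG were called lower, and the median of the list was -0.767. In bulk leaf samples, fewer cells of a type and less RNA per cell cannot be told apart. The part of these marker shifts in the gene changes was not tested.

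The starvation responses of the knockdown and WT leaves shared most of their calls. Of the genes called in the knockdown, 9662 were called in the same direction in WT, which is 79.9% of the knockdown's calls and 80.7% of WT's, and 9 in the opposite direction. No library enters both comparisons. The test of the difference between responses called 41 of 19824 genes, or 0.207%, of which 31 moved upward in the knockdown relative to WT and 10 downward. Before adjustment, 2902 genes had a limma p under 0.05 for this difference. With 2 starved libraries in each line, smaller differences can be missed. Of the 41, 19 reached 5 RPM in some group compared and 22 did not. The number called ranged from 9 to 105 over the settings tried. Among the 41 were 7 of the 9 genes called with the compared libraries only. The same held for 11 of the 13 called with edgeR and 14 of the 61 called with DESeq2. Across genes the difference rose with transcript length (Spearman 0.589), and the slope of level on length was 0.483 and 0.65 in the starved knockdown libraries against -0.179 and 0.0009 in the starved WT libraries. The part of this length trend in the single differences was not tested, but with the trend removed 45 genes were called, of which 32 were among the 41. ABCG30, SMO1-2 and AT5G55360, described below, were among the calls lost there.

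**Figure D4:**
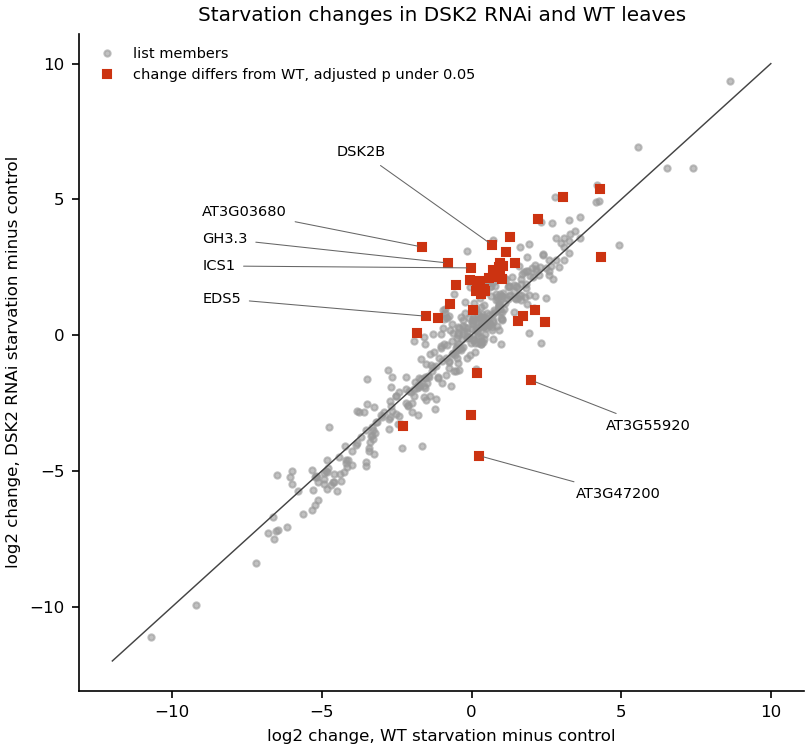
Log2 change on starvation in WT (horizontal) and DSK2 RNAi leaves (vertical) for list members (grey) and the 41 genes whose change differed (red), with the line of equal change. Most points lie near the line, while AT3G03680 lies above it at -1.66 in WT and 3.25 in the knockdown.

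Among genes at 5 RPM or more, the most positive difference was at AT3G03680, a locus with no symbol in the table. In the knockdown it went from 6.98, 8.37 and 7.95 to 115 and 52.7 RPM, whereas in WT it went from 5.94, 6.79 and 9.74 to 1.78 and 2.17 RPM (difference 4.91, SE 0.45, adjusted p = 3.56e-08). Starved atg7-2 leaves had 1.63 and 1.91 RPM, starved bes1-D leaves 0.911 and 0.716 RPM and starved bri1-301 leaves 1.38 and 3.84 RPM. Thus the starved knockdown libraries were the highest of the 10 starved libraries, and the gene moved the other way by value in the other 4 lines.

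GH3.3, which conjugates auxin to amino acids, went from 9.4, 14.1 and 13.4 to 107 and 58.6 RPM in the knockdown and from 8.34, 21.4 and 12.6 to 6.37 and 8.65 RPM in WT (difference 3.44, adjusted p = 0.0344). ICS1, described above, was in WT at 14.8, 12.0 and 8.88 RPM in controls and at a mean of 11.6 ± 2.1 RPM (SD, n = 2) after starvation (difference 2.49, SE 0.44, adjusted p = 0.00387). Its groups overlapped in WT and were apart in the knockdown. Starved bes1-D leaves had still more, 152 and 125 RPM against 30.4, 31.7 and 17.7 RPM in their controls, and starved bri1-301 leaves 1.32 and 2.05 RPM against 12.6, 15.1 and 18.7 RPM. EDS5 went in WT from a mean of 10.2 ± 0.52 (SD, n = 3) RPM to 4.78 and 2.17 RPM and in bes1-D from 15.1, 17.0 and 11.1 to 41.1 and 28.0 RPM (difference of knockdown and WT 2.21, adjusted p = 0.00073). A high starved level of these 2 genes was therefore not limited to the knockdown line.

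Further positive differences were found at ABCG30, a transporter gene, with 0.681, 0.274 and 0.713 RPM in knockdown controls, 12.6 and 11.9 RPM after starvation and 1.85 and 1.93 RPM in starved WT leaves (difference 2.34, adjusted p = 0.0164). Starved atg7-2 leaves had 33.0 and 42.3 RPM. AT5G25260 rose from 6.51, 7.58 and 11.6 to 27.1 and 35.3 RPM (difference 2.34, adjusted p = 0.0402). AXS1, the synthase of the cell-wall sugar donor UDP-apiose, was singled out after its values were seen because the lines differed in the controls. The knockdown controls were at 104, 99.8 and 103 RPM against 254, 330.3 and 269.5 RPM in WT, while the starved libraries were at 398 and 416 RPM in the knockdown and 326 and 365 RPM in WT (difference 1.7, SE 0.26, adjusted p = 0.000654). AT5G38710, from the amino acid list, also differed (2.06, adjusted p = 0.0468).

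The most negative difference was at AT3G47200. In the knockdown it was at 12.8, 11.0 and 15.2 RPM in controls, 14.5, 16.5 and 17.9 RPM after dehydration and 0.135 and 0.101 RPM after starvation, whereas WT controls were at 0, 0.0346 and 0.103 RPM and starved WT leaves at 0.0674 and 0.241 RPM (difference -4.69, SE 0.2, adjusted p = 2.01e-16). The control and starved libraries of the other 4 lines did not exceed 0.241 RPM, so the transcript was detected well above the floor only in the knockdown line, and there not after starvation. The loci with adjacent numbers followed it. AT3G47190 was at 4.19, 1.92 and 4.86 RPM in knockdown controls and 0.0337 and 0 RPM after starvation (difference -2.9, adjusted p = 3.74e-08). AT3G47210 was at 1.47, 0.960 and 1.26 and 0.101 and 0.201 RPM (difference -1.59, adjusted p = 0.032). These 2 were named after their values were seen.

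AT3G55920, annotated as a cyclophilin-like prolyl isomerase, fell in the knockdown from 7.83, 5.32 and 7.58 to 1.42 and 2.28 RPM and rose by value in WT from 6.49, 4.99 and 7.33 to 35.3 and 19.5 RPM (difference -3.66, SE 0.41, adjusted p = 1.83e-06). The starved libraries of atg7-2, bes1-D and bri1-301 lay between 0.749 and 3.57 RPM, so for this gene WT and not the knockdown stood apart. SMO1-2, a sterol methyl oxidase, went from 14.3, 13.6 and 14.2 to 1.01 and 0.839 RPM in the knockdown and reached 2.66 and 2.86 RPM in WT (difference -1.07, adjusted p = 0.04), and AT5G55360 had a difference of -1.46 (adjusted p = 0.0386). AT3G03680, DSK2B, AT3G47200, AT3G55920 and AXS1 kept their calls in every setting tried. GH3.3, ABCG30, AT5G25260, SMO1-2, AT5G55360 and AT5G38710 lost theirs in most fits that left out 1 library. ICS1 lost its call without WT starved replicate 2, and ICS1 and EDS5 lost theirs in a fit to the compared libraries alone.

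**Figure D5:**
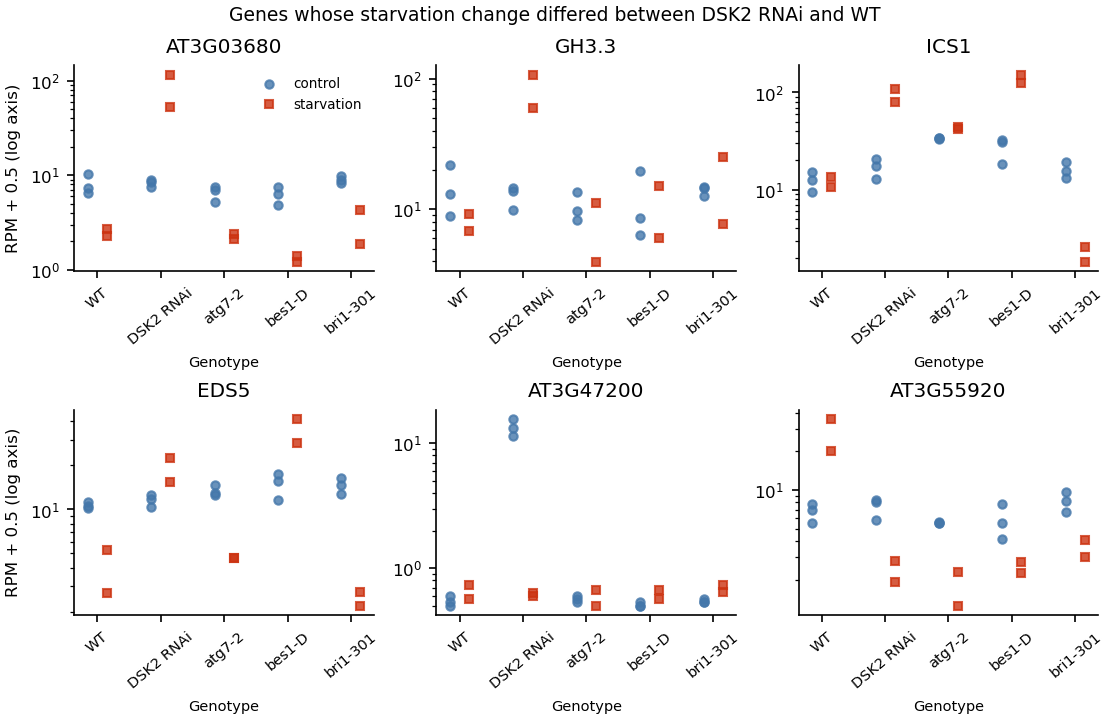
RPM (log axis) of AT3G03680, GH3.3, ICS1, EDS5, AT3G47200 and AT3G55920 in each control and starved library of 5 genotypes. AT3G47200 is above 0.241 RPM only in DSK2 RNAi controls, and AT3G55920 is highest in starved WT leaves.

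Against atg7-2, a mutant of ATG7, the responses differed at 3455 genes, or 17.4%, with 2808 higher and 647 lower in the knockdown relative to the mutant. That split depended on scaling. With median-of-ratios scaling 2281 genes were called, 837 higher and 1444 lower, and the median difference over all genes went from 0.283 to -0.047. The list medians and counts that follow are from the main fit, where the median over all genes was 0.283. They were not recomputed with median-of-ratios scaling. Against atg7-2 the defence list stood at a median of 2.13 with 9 of 15 members positive and none negative, and the autophagy list at -0.450 with 1 positive and 7 negative. ATG8H (difference -2.35, adjusted p = 0.00149) and ATG11 (-2.15, adjusted p = 0.0369) rose less in the knockdown than in the mutant. BES1 fell less (difference 1.39, adjusted p = 0.000714), from 193, 195 and 187 to 13.8 and 10.0 RPM in atg7-2.

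The most positive differences from atg7-2 were at LTP4 (5.55, adjusted p = 0.00461), a lipid transfer protein, EXPA16 (5.19), LTP3 (5.0), AT3G03680 (4.77), GolS2 (4.28), a galactinol synthase, and ALD1 (4.1), which acts before FMO1 in N-hydroxypipecolic acid synthesis. LTP4 was uneven in the knockdown controls, at 7.05, 1.2 and 19.9 RPM, against 57.6 and 34.8 RPM after starvation. Its difference was 4.59 without control replicate 2, that of LTP3 was 5.85 without control replicate 3 and that of GolS2 3.46 without control replicate 1. In atg7-2 LTP4 went the other way by value, from 18.4, 22.1 and 12.3 to 1.77 and 2.63 RPM. Starved atg7-2 leaves stood far above the knockdown at AGP14, an arabinogalactan protein, with 114 and 103 RPM against 0.337 and 0.235 RPM (difference -6.69, adjusted p = 6.91e-14), and at SUS5, with 174 and 161 against 3.07 and 0.906 RPM (-6.37, adjusted p = 3.4e-12, and -7.05 without DSK2 RNAi starved replicate 1). CEP2 (-5.31), a cysteine protease, GH9B17 (-5.11), PYL3 (-5.01), an abscisic acid receptor, and AT1G70680 (-4.97) followed, the calls of PYL3 and AT1G70680 being lost with edgeR on recovered reads.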

How the data were processed

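RNA from Arabidopsis leaves was sequenced as single-end reads of 50 bases, per the labels' protocols. The authors deposited 1 table with a normalised signal per gene and library, headed RPM, beside their own yes or no calls. GSNAP, DESeq2 and TAIR10 are named in the submitters' processing notes, with no role given. Multiples of the lowest values gave whole reads for 99.972 to 100% of values (tolerance 0.01 reads), 26634819 to 30375860 reads per library. The column totals of 985308 to 1023136 RPM were near but not equal between libraries, and the deposited signal was used as it stands, so the shift of all genes depends on that scaling. A count of 3 reads was taken as the floor for detection. It covers counting error only, and reads without molecular identifiers are not independent molecules.

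Of 33366 lines, 28775 had a gene identifier, and 19824 genes reached 1 RPM in at least 2 of the 40 libraries. Log2(RPM + 0.5) values were fitted by group in limma 3.58.1 (R 4.3.3) with a mean-variance trend and 25 residual degrees of freedom. Tests were two-sided, with Benjamini-Hochberg adjustment over all genes tested and calls at an adjusted p under 0.05. Groups were counted as apart where both starved values lay above every control or both lay below, and as overlapping otherwise. edgeR 4.0.16 (quasi-likelihood) and DESeq2 1.42.0 on recovered reads, other scalings, filters, pseudocounts, a length correction, the replicate block and fits without each library were alternatives. The fit was tested on simulated data. Figures were drawn with matplotlib 3.10.9.

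The libraries, gene lists and tests were chosen with earlier results of these data known. Lists are described by counts and medians. Genes were named by rule: from each list, at most 4 genes that passed and reached 5 RPM, taken by size of change, the 8 most raised and 8 most lowered, up to 6 in each direction for a difference between lines, and any member of the DSK2, BES1 ligase, autophagy and brassinosteroid signalling lists. DIN6, TPS5, AT5G09300, MLS, BAM1, CINV1, SEX1, GLN1.3, RCCR, SAG12, WRKY53, PIF5, XTH24, IBH1, KIN2, DWF5, FMO1, CBP60G, EDS5, PAD4, AXS1, PI, SEP3, AP1, AG and IRX1 were added after their values were seen. Replicate numbers are not stated to mark shared plants, batches or days. The values of 1 member of the cargo receptor list are not reported here.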

Additional observations from a re-analysis of the deposited data

Results flagged for a closer look

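Each gene in this section has a starvation change that differs between lines by the limma test of the difference itself, and the values are differences of log2 changes with adjusted p-values over all genes. Groups held 2 or 3 libraries, too few to test for a library standing apart.

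Against WT, the change in DSK2 RNAi leaves was more positive at AT3G03680 (4.91, adjusted p = 3.56e-08), GH3.3 (3.44, adjusted p = 0.0344), DSK2B (2.63, adjusted p = 6.72e-08) and ICS1 (2.49, adjusted p = 0.00387). It was also more positive at ABCG30 (2.34, adjusted p = 0.0164), AT5G25260 (2.34, adjusted p = 0.0402), EDS5 (2.21, adjusted p = 0.00073), AT5G38710 (2.06, adjusted p = 0.0468) and AXS1 (1.7, adjusted p = 0.000654). It was more negative at AT3G47200 (-4.69, adjusted p = 2.01e-16), AT3G55920 (-3.66, adjusted p = 1.83e-06), AT5G55360 (-1.46, adjusted p = 0.0386) and SMO1-2 (-1.07, adjusted p = 0.04).

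Against atg7-2, the change was more positive at LTP4 (5.55, adjusted p = 0.00461), EXPA16 (5.19, adjusted p = 0.000147), LTP3 (5.0, adjusted p = 0.00219), AT3G03680 (4.77, adjusted p = 2.91e-09), GolS2 (4.28, adjusted p = 0.00254) and ALD1 (4.1, adjusted p = 0.000738). It was more negative at AGP14 (-6.69, adjusted p = 6.91e-14), SUS5 (-6.37, adjusted p = 3.4e-12), CEP2 (-5.31, adjusted p = 3.75e-14), GH9B17 (-5.11, adjusted p = 1.39e-20), PYL3 (-5.01, adjusted p = 3.73e-14) and AT1G70680 (-4.97, adjusted p = 1.65e-07). Of the genes printed here, only AT3G03680 stands in both sets. The set against atg7-2 holds at most 6 genes in each direction out of 3455 called. Genes printed against WT alone may therefore differ from atg7-2 as well.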

How the results depend on the processing

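The number of genes called on starvation in DSK2 RNAi leaves was 12088, and 10148 to 11404 when 1 of the 5 libraries was left out. For WT it was 11968, and 9789 to 11459. With a replicate block 12161 and 12738 genes were called. Deviations of same-numbered control and starved libraries of the knockdown correlated with r = 0.181 and -0.244. With only 2 starved libraries, their deviations from the mean mirror each other, so these values cannot decide on pairing. Replicate numbers are not stated to mark shared plants, and they were not taken as pairs. The difference from WT (41 genes) moved to 13 with a pseudocount of 0.1 RPM, 68 with 1 RPM and 105 with no filter. It was 9 with the compared libraries only, 13 with edgeR and 61 with DESeq2, and 14 of those 61 were among the 41. With median-of-ratios scaling and with the replicate block it was 55. Leaving out 1 library gave 20 to 43, with 20 without WT control 2, 21 without WT starved 2 and 24 without DSK2 RNAi control 1. The difference from atg7-2 (3455 genes) was 2281 with median-of-ratios scaling, 2087 with edgeR and 3133 with the replicate block, and 1843 to 3239 with 1 library left out, lowest without atg7-2 starved 2 and 2252 without DSK2 RNAi starved 2. Median-of-ratios scaling moved the median change in the knockdown from -0.148 to -0.026, with 5976 genes higher and 6702 lower. No named gene called in the full fit changed sign in a setting run. The changes of BEH2, RPN10, ATG8F, ATG8G, AT5G53360 and SUS5 in the knockdown, none of them called in the full fit, did in some. Of these, AT5G53360 and SUS5 passed in some other settings, so their changes are unstable. The cause of these shifts was not tested. Below the 3-read floor no difference was detectable at this depth.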
